A study of Saccharomyces cerevisiae with 6 samples.

Results

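The 10 genes described here encode enzymes around the last steps of alcoholic fermentation in *Saccharomyces cerevisiae*, with the branch to acetate. They are the pyruvate decarboxylases *PDC1*, *PDC5* and *PDC6*, the alcohol dehydrogenases *ADH1*, *ADH2*, *ADH3*, *ADH4* and *ADH5*, and the aldehyde dehydrogenases *ALD4* and *ALD6*. They were found by matching their symbols, a rule that uses no measured value, although the set was proposed with earlier results of these data known, and are 10 of the 5925 genes listed for each library. RNA was sequenced in 3 libraries labelled BSGX001 (thi2Δ) and 3 libraries labelled BSGX001. Per the labels, both strains come from CEN.PK 113-5D, both carry Ru-XI, XK, the gre3::PPP replacement and cox4delta, both went through adaptive evolution in xylose, and thi2delta is the listed difference between them. Cells were grown at 30 °C and 200 rpm in yeast nitrogen base medium that held 20 g/L of each sugar, glucose and xylose, and were sampled at 20 h, in the GX stage, when xylose is consumed after glucose has run out. The series gives 3 replicates per strain without saying that they were separate cultures, and p-values therefore measure the spread between these libraries, which may be technical. Whether the strain with the deletion was 1 clone or several is not given in the sources used here.

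Pyruvate decarboxylase, an enzyme with thiamine diphosphate as its cofactor, splits pyruvate into acetaldehyde and carbon dioxide. Alcohol dehydrogenase reduces the acetaldehyde to ethanol, and aldehyde dehydrogenase oxidises it to acetate, the precursor of cytosolic acetyl-CoA. *THI2*, the gene deleted in one strain, encodes an activator of thiamine biosynthesis genes. Most of these enzymes have paralogs that differ in the conditions under which they are used, so that the balance between isozymes is of interest beside the level of each gene.

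*THI2* itself, on chromosome II, had 128, 90 and 141 counts where the label was BSGX001 (thi2Δ), against 215, 203 and 187 in those labelled BSGX001, with a log2 fold change of -1.10 (SE 0.137, adjusted p = 6.32e-08, edgeR's quasi-likelihood test with Benjamini-Hochberg adjustment). It was lower but not at 0, so the libraries are named here by their labels, and every direction given below is between labelled libraries. *COX4* and *GRE3*, which the genotype of both strains lists as altered, had 222 to 510 and 395 to 721 counts over the 6 libraries. *COX4* was higher in the libraries labelled BSGX001 (thi2Δ) (log2 fold change 0.36, adjusted p = 0.00325, same test). *GRE3* was lower in them (-0.37, adjusted p = 8.94e-04, same test), but with library totals it was at -0.16 and did not pass. Each library held 7584920 to 12255688 counts. The 85 tested genes of chromosome I and the 107 of a chromosome XII stretch between *ECM22* and *GAS2* had median log2 fold changes of 0.99 and 1.06, and effects of the deletion and of these regions cannot be told apart in these libraries. None of the 10 genes lies in either region, and the other 5582 genes had a median of -0.0046. The scaling between libraries also matters: with the trimmed mean of M-values (TMM), used for the depth-scaled counts (CPM) below, the median gene stood at 0.01, and with library totals at 0.22.

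All 10 genes passed the filter on low counts, and 5 of them differed between the labels (edgeR's quasi-likelihood test, Benjamini-Hochberg adjustment over 5774 genes, threshold of 0.05). *ADH2* and *ALD6* were higher in the libraries labelled BSGX001 (thi2Δ), *PDC1*, *ADH1* and *ADH5* were lower, and *PDC5*, *PDC6*, *ADH3*, *ADH4* and *ALD4* did not pass. Over all genes tested 51.3% passed, 26.1% higher and 25.2% lower, so a count of 5 in 10 is close to that of genes in general. In bulk RNA a change in every cell and a change in the share of cells that express a gene cannot be told apart. The median log2 fold change was 0.05 for the 10 genes and 0.01 for all genes tested. The libraries did not overlap between labels for *PDC1*, *ADH2*, *ADH5*, *ALD4* and *ALD6*, that is for 5 of the 10 genes, beside 57.8% of all genes tested.

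**Figure D1:**
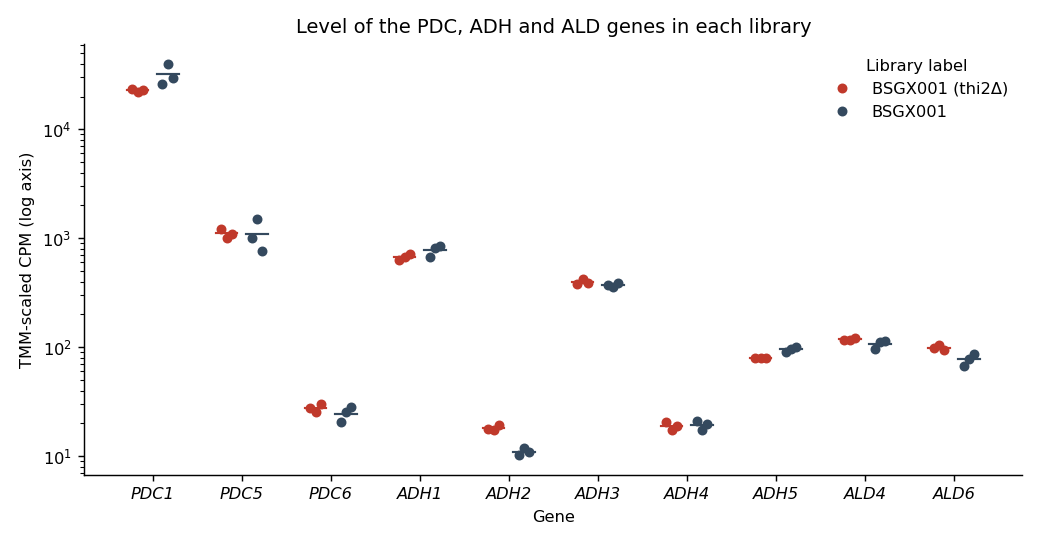
TMM-scaled CPM (log axis) of each of the 10 genes in the 3 libraries labelled BSGX001 (thi2Δ) (red) and the 3 labelled BSGX001 (dark blue); points are libraries and bars are means. *PDC1* lies between 21784 and 40110 CPM, *ADH2* between 10.2 and 19.4 CPM, and the labels separate without overlap for *PDC1*, *ADH2*, *ADH5*, *ALD4* and *ALD6*.

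On the FPKM scale, which divides by gene length and so allows genes to be ordered, the genes spanned a wide range of the transcriptome without reaching its lowest genes. In the libraries labelled BSGX001 (thi2Δ) the order was *PDC1* (14482 ± 452 FPKM), *PDC5* (705 ± 57.9), *ADH1* (697 ± 57.2), *ADH3* (378 ± 23.5), *ALD4* (81.8 ± 2.87), *ADH5* (81.5 ± 0.347), *ALD6* (71.0 ± 4.39), *ADH2* (18.8 ± 1.17), *ADH4* (17.9 ± 1.30) and *PDC6* (17.7 ± 1.41; SD, n = 3 each). *PDC5* and *ADH1*, *ALD4* and *ADH5*, and *ADH2*, *ADH4* and *PDC6* were closer to each other than their spread. In the libraries labelled BSGX001 the order was *PDC1* (17491 ± 3972 FPKM), *ADH1* (691 ± 77.8), *PDC5* (598 ± 207), *ADH3* (308 ± 10.2), *ADH5* (84.2 ± 3.69), *ALD4* (63.8 ± 4.60), *ALD6* (47.7 ± 5.05), *ADH4* (15.6 ± 1.56), *PDC6* (13.5 ± 1.90) and *ADH2* (9.76 ± 0.678; SD, n = 3 each). There *ADH2* stood last, with no library reaching the lowest *PDC6* library, and *ADH1* and *PDC5* did not differ beyond their spread. By mean FPKM *PDC1* was gene 3 of all genes listed in the libraries labelled BSGX001 (thi2Δ) and gene 4 in those labelled BSGX001, while *ADH2* was gene 4911 and gene 5239.

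*PDC1*, the main pyruvate decarboxylase of fermenting cells, was lower in the libraries labelled BSGX001 (thi2Δ). It had 23592, 21784 and 22829 CPM in these libraries, against 26237, 40110 and 29398 CPM in those labelled BSGX001. The groups did not overlap, but replicate 2 labelled BSGX001 stood well above the other two of its label. The log2 fold change was -0.49 (SE 0.116, 95% interval -0.73 to -0.25, adjusted p = 9.07e-04 in edgeR's quasi-likelihood test with Benjamini-Hochberg adjustment), which is 0.712 times the level. Without BSGX001 replicate 2 it was -0.29 (adjusted p = 0.0139, same test). DESeq2's Wald test on all 6 libraries gave -0.49 with a larger SE of 0.189 (adjusted p = 0.0232). On the deposited FPKM the groups overlapped, and limma on log2(FPKM + 1) gave -0.25 with an adjusted p of 0.112. Reads of *PDC1* alone made up 2.51%, 2.36% and 2.48% of all counts in the libraries labelled BSGX001 (thi2Δ), and 2.47%, 3.73% and 2.68% in those labelled BSGX001.

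*PDC5*, the paralog that can replace *PDC1* when *PDC1* is lost and that is known to respond to thiamine limitation, did not pass the test. Its level was 1219, 1017 and 1086 CPM in the libraries labelled BSGX001 (thi2Δ), against 1011, 1494 and 763 CPM in those labelled BSGX001, a log2 fold change of 0.02 (95% interval -0.74 to 0.78, adjusted p = 0.955, edgeR's quasi-likelihood test with Benjamini-Hochberg adjustment). The BSGX001 libraries enclosed the 3 others, and replicate 2, the high library for *PDC1*, was also the high one for *PDC5*. Without BSGX001 replicate 2 the log2 fold change was 0.32 and passed the test (adjusted p = 0.00958), whereas without BSGX001 replicate 3 it was -0.18, so the 3 BSGX001 libraries set what can be said of *PDC5*. *PDC6*, an isozyme known to be used mainly under sulfur limitation, had 27.5, 25.7 and 30.0 CPM in the libraries labelled BSGX001 (thi2Δ), against 20.5, 25.3 and 28.0 CPM in those labelled BSGX001 (log2 fold change 0.19, 95% interval -0.05 to 0.42, adjusted p = 0.176, same test). These are 194 to 359 counts per library, and the groups overlapped. With library totals *PDC6* was at 0.40 and passed (adjusted p = 0.00406), beside a median of 0.22 for all genes on that scale, and without BSGX001 replicate 1 it was at 0.06.

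*PDC1* (chrXII:232390-234081, reverse strand) and *PDC5* (chrXII:410723-412414, forward strand) are each a single coding exon of 1692 bases in the S288C reference genome, build R64, and their coding sequences are 87.2% identical. *PDC6* (chrVII:651290-652981, reverse strand) is 75% identical to *PDC1* and 73.8% to *PDC5*. The longest run of bases that *PDC1* and *PDC5* share is shown first below because reads inside it cannot be given to either gene. It begins at base 346 of both coding sequences and lies at chrXII:233672-233736 in *PDC1* and chrXII:411068-411132 in *PDC5*. The 60-base stretch in which they differ most, at coding bases 559 to 618 with 19 mismatches in capitals, is where reads tell them apart best. All are written 5′ to 3′ on the coding strand.
PDC1 and PDC5, shared run: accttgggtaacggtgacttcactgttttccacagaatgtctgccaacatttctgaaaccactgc
PDC1, least alike stretch (chrXII:233464-233523): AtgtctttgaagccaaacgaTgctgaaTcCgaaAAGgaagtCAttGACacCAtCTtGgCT
PDC5, least alike stretch (chrXII:411281-411340): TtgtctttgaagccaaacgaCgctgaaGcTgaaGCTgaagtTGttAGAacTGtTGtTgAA
Of the 50-base windows of *PDC1* and of *PDC5*, 16 of 1643 each (0.974%) occur a further time in the genome, and none of *PDC6* does. No 100-base window of the 3 genes does.

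Within the family the share of *PDC5* was larger in the libraries labelled BSGX001 (thi2Δ), although its level did not pass the test. The *PDC5* to *PDC1* ratio of FPKM was 5.17%, 4.67% and 4.76% in these libraries, against 3.86%, 3.73% and 2.60% in those labelled BSGX001. The ranges did not overlap, and the log2 ratio differed by 0.54 (exact permutation test over the 20 assignments of 6 libraries, two-sided p = 0.1, the smallest this design allows, and 0.1 after adjustment over the 3 ratios tested). Without BSGX001 replicate 3, the library with the lowest ratio, the difference was 0.36. Such a ratio within a library does not depend on the scaling between libraries. *PDC1* made up 95.3 ± 0.238% of the summed PDC FPKM in the libraries labelled BSGX001 (thi2Δ) and 96.6 ± 0.637% in those labelled BSGX001, and *PDC5* 4.63 ± 0.242% and 3.28 ± 0.651% (SD, n = 3 each). The family sum itself overlapped between labels, at 15205 ± 506 FPKM in libraries labelled BSGX001 (thi2Δ) and 18103 ± 4152 FPKM in those labelled BSGX001 (SD, n = 3 each).

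**Figure D2:**
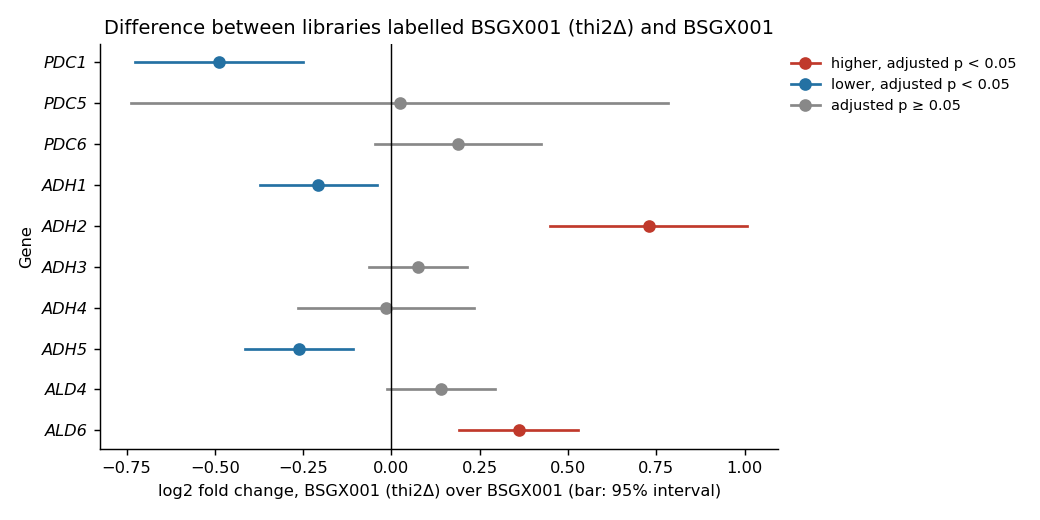
Log2 fold change of each gene, libraries labelled BSGX001 (thi2Δ) over those labelled BSGX001, with 95% intervals from edgeR's quasi-likelihood fit on TMM-scaled counts; red is higher, blue lower and grey not past an adjusted p of 0.05. *ADH2* at 0.73 and *PDC1* at -0.49 lie furthest from 0, the interval of *PDC5* is the widest, and *ADH1* comes out at 0.01 instead of -0.21 when library totals are used.

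*ADH2* showed the strongest difference of the 10 genes. It encodes the cytosolic isozyme that oxidises ethanol back to acetaldehyde and that is repressed by glucose. It had 17.7, 17.5 and 19.4 CPM in the libraries labelled BSGX001 (thi2Δ), against 10.2, 11.8 and 11.0 CPM in those labelled BSGX001. Every library labelled BSGX001 (thi2Δ) was above every library labelled BSGX001, and the spread within each label was small (18.2 ± 1.05 CPM and 11.0 ± 0.811 CPM, SD, n = 3 each). The log2 fold change was 0.73 (SE 0.137, 95% interval 0.45 to 1.01, adjusted p = 4.96e-05 in edgeR's quasi-likelihood test with Benjamini-Hochberg adjustment), or 1.66 times the level. It was higher in all 17 alternative analyses, at 0.67 to 0.94, and past the threshold in the 16 of them that give a test. In absolute size this change was number 379 of the 5774 genes tested.

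*ADH1*, the main isozyme for making ethanol, had 626, 678 and 725 CPM in the libraries labelled BSGX001 (thi2Δ), against 669, 823 and 851 CPM in those labelled BSGX001. The groups overlapped, and the log2 fold change of -0.21 (SE 0.081, 95% interval -0.37 to -0.04) was close to the threshold, with an adjusted p of 0.0322 in edgeR's quasi-likelihood test with Benjamini-Hochberg adjustment. The call was lost on leaving out replicate 1 or 2 labelled BSGX001 (thi2Δ) or replicate 2 or 3 labelled BSGX001 (adjusted p between 0.06 and 0.19, same test) and in the fit without the 2 shifted regions, which was added after the data had been seen and left 4 of the 10 genes past the threshold, and with library totals the log2 fold change was 0.01. Upper-quartile factors, with the median gene at 0.08, gave *ADH1* -0.14, which did not pass (adjusted p = 0.151, same test). *ADH5*, a minor cytosolic isozyme, had 80.5, 79.3 and 79.7 CPM in the libraries labelled BSGX001 (thi2Δ), against 89.8, 96.8 and 101 CPM in those labelled BSGX001. These ranges did not overlap, and the log2 fold change was -0.26 (SE 0.075, adjusted p = 0.00419, same test). With library totals it was -0.05 and did not pass (adjusted p = 0.6, same test).

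The other two alcohol dehydrogenases did not pass the test. *ADH3*, the mitochondrial isozyme, had 381, 420 and 385 CPM in the libraries labelled BSGX001 (thi2Δ), against 375, 360 and 390 CPM in those labelled BSGX001 (log2 fold change 0.08, 95% interval -0.06 to 0.21, adjusted p = 0.362, edgeR's quasi-likelihood test with Benjamini-Hochberg adjustment). *ADH4*, which is of a separate protein family from the other four and rises under zinc limitation, had 20.7, 17.5 and 18.9 CPM in the libraries labelled BSGX001 (thi2Δ), against 21.0, 17.4 and 19.7 CPM in those labelled BSGX001 (log2 fold change -0.02, 95% interval -0.27 to 0.23, adjusted p = 0.929, same test). The libraries of both labels overlapped for both genes. *ADH4* turned to 0.20 with library totals and *ADH3* to 0.29, which passed the test there (adjusted p = 3.41e-04, same test), beside a median of 0.22 for all genes on that scale.

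*ADH1* (chrXV:159548-160594, reverse strand) and *ADH2* (chrXIII:873291-874337, reverse strand) are single coding exons of 1047 bases that are 88.8% identical, and they share a run of 189 bases. This run is printed because it bears on how far the counts of *ADH2* can be separated from those of *ADH1*: it lies at chrXV:160214-160402 in *ADH1* and chrXIII:873957-874145 in *ADH2*, from coding base 193 in both. The second pair shows coding bases 668 to 727, the 60-base stretch with the most differences, with its 16 mismatches in capitals.
ADH1 and ADH2, shared run: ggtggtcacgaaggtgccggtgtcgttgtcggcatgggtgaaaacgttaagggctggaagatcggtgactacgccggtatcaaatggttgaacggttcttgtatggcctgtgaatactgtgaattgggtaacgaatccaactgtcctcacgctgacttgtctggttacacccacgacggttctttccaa
ADH1, least alike stretch (chrXV:159868-159927): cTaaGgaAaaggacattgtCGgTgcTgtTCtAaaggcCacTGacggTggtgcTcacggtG
ADH2, least alike stretch (chrXIII:873611-873670): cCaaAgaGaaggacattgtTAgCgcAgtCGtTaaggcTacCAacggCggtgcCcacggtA
Of the 998 windows of 50 bases in each coding sequence, 140 (14%) occur a further time in the genome, as do 90 of 948 windows of 100 bases (9.49%). *ADH2* had 76 to 231 counts per library and *ADH1* 5603 to 8172, and how the authors' counting divided reads from the shared run is not given in the sources used here, so the level of *ADH2* is uncertain to that extent. *ADH3* (chrXIII:434788-435915), *ADH4* (chrVII:15159-16307) and *ADH5* (chrII:533762-534817), all on the forward strand, are 69.9%, 48.9% and 73.8% identical to *ADH1*, and no 50-base window of them occurs a further time.

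Beside *ADH1*, *ADH2* stood higher in the libraries labelled BSGX001 (thi2Δ), though at a low level under both labels. The *ADH2* to *ADH1* ratio of FPKM was 2.83%, 2.59% and 2.68% in the libraries labelled BSGX001 (thi2Δ), against 1.53%, 1.44% and 1.29% in those labelled BSGX001. The ranges were far apart, and the log2 ratio differed by 0.93 (exact permutation test, two-sided p = 0.1, the smallest possible here, and 0.1 after adjustment over 3 ratios). *ADH2* made up 1.57 ± 0.0761% of the summed ADH FPKM in the libraries labelled BSGX001 (thi2Δ) and 0.881 ± 0.0559% in those labelled BSGX001, and *ADH5* 6.84 ± 0.379% and 7.60 ± 0.213% (SD, n = 3 each). The shares of *ADH1* (58.4 ± 1.86% in the libraries labelled BSGX001 (thi2Δ) and 62.2 ± 2.86% in those labelled BSGX001), *ADH3* and *ADH4* overlapped between labels. The sum of the 5 genes overlapped as well, at 1193 ± 68.6 FPKM in libraries labelled BSGX001 (thi2Δ) and 1109 ± 78.1 FPKM in those labelled BSGX001. Over the 10 genes, 7 shares did not overlap and reached an exact permutation p of 0.1, the smallest possible here, which became 0.15 after adjustment for 6 of them. The shares of a family add up to its whole, so these are not 7 separate results. No such count over other genes was made for comparison. The share of *ALD6* is what *ALD4* leaves of the ALD sum and was not adjusted as a test of its own.

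**Figure D3:**
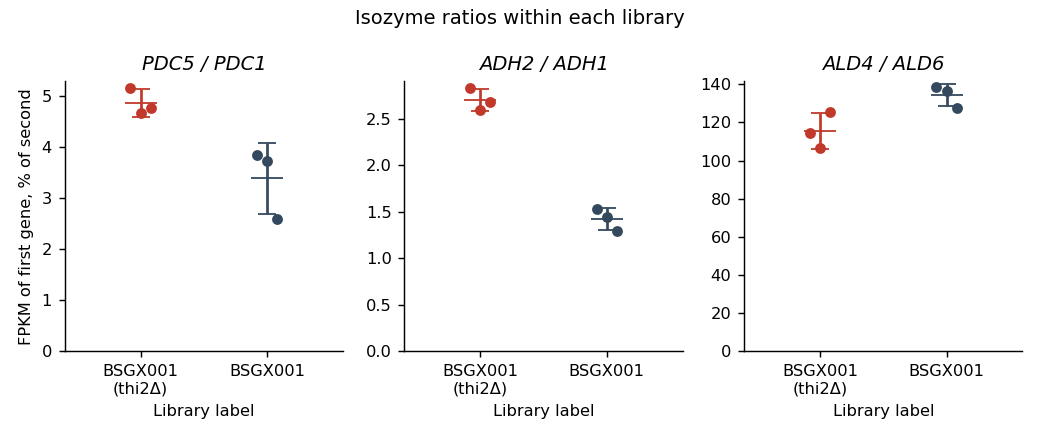
FPKM of *PDC5* as a percent of *PDC1*, *ADH2* as a percent of *ADH1* and *ALD4* as a percent of *ALD6*, in each library labelled BSGX001 (thi2Δ) (red, left) and BSGX001 (dark blue, right); points are libraries, and the horizontal and vertical bars are mean and SD (n = 3). The labels separate in all 3 panels, with *ADH2* at 2.59% to 2.83% of *ADH1* in the libraries labelled BSGX001 (thi2Δ) and 1.29% to 1.53% in those labelled BSGX001.

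*ALD6*, the cytosolic NADP-dependent aldehyde dehydrogenase and the main source of acetate during growth on glucose, was higher in the libraries labelled BSGX001 (thi2Δ). It had 98.0, 105 and 93.9 CPM in these libraries, against 67.5, 78.5 and 86.1 CPM in those labelled BSGX001. The groups did not overlap, with a log2 fold change of 0.36 (SE 0.083, 95% interval 0.19 to 0.53, adjusted p = 5.66e-04 in edgeR's quasi-likelihood test with Benjamini-Hochberg adjustment), or 1.28 times the level. It was higher in all 17 alternative analyses, at 0.27 to 0.58, and passed in the 16 that give a test. *ALD4*, the major mitochondrial isozyme, which is glucose-repressed, had 116, 116 and 122 CPM in the libraries labelled BSGX001 (thi2Δ), against 97.0, 111 and 114 CPM in those labelled BSGX001. Here too the groups did not overlap, but the log2 fold change of 0.14 (95% interval -0.01 to 0.29) did not pass (adjusted p = 0.116, same test). With library totals it was 0.36, beside a median of 0.22 for all genes on that scale, and passed (adjusted p = 1.57e-04, same test). Upper-quartile factors, with the median gene at 0.08, gave *ALD4* 0.21, which passed as well (adjusted p = 0.0197, same test).

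On the FPKM scale the summed aldehyde dehydrogenase level was 149, 157 and 153 in the libraries labelled BSGX001 (thi2Δ), against 101, 115 and 119 in those labelled BSGX001. It was the only one of the 3 family sums whose libraries did not overlap between labels, on a scale where the median gene stood at 0.22. The *ALD4* to *ALD6* ratio was 114%, 107% and 125% in the libraries labelled BSGX001 (thi2Δ), against 138%, 137% and 128% in those labelled BSGX001. These did not overlap by a narrow margin, and the log2 ratio differed by -0.22 (exact permutation test, two-sided p = 0.1, the smallest possible here, and 0.1 after adjustment over 3 ratios). *ALD4* (chrXV:1039840-1041399) and *ALD6* (chrXVI:432588-434090), both on the forward strand, are 61.4% identical, and no 50-base window of either occurs a further time in the genome.

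The upstream sequences of *ADH2*, *ALD6*, *ADH1* and *ALD4* are shown because these genes give the 2 higher calls, the main ethanol-forming gene and the mitochondrial counterpart. Letters were searched on both strands in the 350 bases from 500 to 151 before the start codon, a range that leaves out most of the transcribed leader. The printed part is the 150 bases from 300 to 151 before the start codon. The letters TTGGAG stand for a part of the site of Adr1, an activator of *ADH2* and other glucose-repressed genes. The core of the site of Gcr1, an activator of glycolytic genes, was searched as CTTCC. The stress response element of Msn2 and Msn4 was searched as AGGGG. A core of the site of Rap1, a general activator of glycolytic and ribosomal protein genes, was searched as CACCCA. None of these motifs is contained in another. Capitals mark TTGGAG or its reverse complement in *ADH2* and *ALD4*, CTTCC in *ADH1* and AGGGG in *ALD6*, all read 5′ to 3′ toward the gene.
ADH2 (chrXIII:874488-874637, reverse strand): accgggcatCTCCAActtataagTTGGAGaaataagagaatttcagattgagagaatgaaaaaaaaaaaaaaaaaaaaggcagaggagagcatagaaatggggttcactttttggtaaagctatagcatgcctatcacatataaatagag
ALD6 (chrXVI:432288-432437, forward strand): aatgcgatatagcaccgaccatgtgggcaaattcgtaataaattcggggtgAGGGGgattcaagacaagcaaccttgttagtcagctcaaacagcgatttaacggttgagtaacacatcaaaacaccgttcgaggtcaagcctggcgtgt
ADH1 (chrXV:160745-160894, reverse strand): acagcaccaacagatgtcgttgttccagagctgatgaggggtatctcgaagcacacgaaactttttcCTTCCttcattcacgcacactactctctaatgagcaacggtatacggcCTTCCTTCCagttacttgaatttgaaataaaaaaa
ALD4 (chrXV:1039540-1039689, forward strand): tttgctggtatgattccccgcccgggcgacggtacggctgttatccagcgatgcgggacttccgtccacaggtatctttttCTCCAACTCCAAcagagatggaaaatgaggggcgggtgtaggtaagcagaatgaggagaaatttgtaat
In *ADH2* the 2 matches to the Adr1 letters, 291 and 277 bases before the start codon, face each other as an inverted pair, and in *ALD4* 2 matches, 219 and 213 bases before it, follow each other in the same direction. At least 2 such matches were found in 1.2% of the 6019 upstream windows of the annotation, and at least 1 in 13.9%. *ADH4* held 1 match, and the other 7 genes held none in this window. *ADH1* held 4 matches to CTTCC, 3 of them in the printed part, and 54.9% of all windows held at least 1. AGGGG was present in 6 of the 10 genes (*PDC1*, *PDC5*, *ADH1*, *ADH5*, *ALD4* and *ALD6*) and in 25.9% of all windows, and CACCCA in *ADH3* and in 11.3% of windows. A match is a stretch of letters and not a site shown to be bound, and the strain's own sequence was not analysed here.

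The genes around the ethanol and acetate steps were read from 10 lists that hold 56 further genes, of which 55 were tested. In all, 11 were higher in the libraries labelled BSGX001 (thi2Δ), 13 were lower and 31 did not pass, beside 26.1% higher and 25.2% lower of all genes tested. The median log2 fold change was -0.06. With chromosome I and the chromosome XII stretch left out, an alternative added after the data had been seen, 22 list genes passed, beside 24 in the main fit. That alternative drops *BDH1*, *BDH2* and *ACS1*, which had all passed, and leaves 52 list genes, so the 2 counts cover unlike sets.

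Among the other alcohol dehydrogenases and keto reductases, 2 rose and 2 fell of 5 tested. *BDH1*, the butanediol dehydrogenase, had 405, 433 and 435 CPM in the libraries labelled BSGX001 (thi2Δ), against 216, 200 and 243 CPM in those labelled BSGX001 (log2 fold change 0.95, adjusted p = 2.36e-12, edgeR's quasi-likelihood test with Benjamini-Hochberg adjustment), and its neighbour *BDH2* changed by 1.26. Both lie on chromosome I, where the median gene stood at 0.99, and the part of the chromosome in their values was not tested. *ADH6*, an NADPH-dependent medium-chain enzyme, fell by 0.46 on the log2 scale, and *SFA1*, which acts on formaldehyde bound to glutathione and on long-chain alcohols, fell by 0.33. With library totals *SFA1* was at -0.11 and did not pass.

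*ALD5*, a mitochondrial aldehyde dehydrogenase that is minor beside *ALD4*, was the single change among 4 other aldehyde dehydrogenases. It had 156, 164 and 162 CPM in the libraries labelled BSGX001 (thi2Δ), against 227, 235 and 221 CPM in those labelled BSGX001, with a log2 fold change of -0.50 (SE 0.067, adjusted p = 2.66e-07, edgeR's quasi-likelihood test with Benjamini-Hochberg adjustment). Its direction was thus opposite to that of *ALD6* with no overlap between labels in either gene. The others in the list, *ALD2*, *ALD3* and *HFD1*, had log2 fold changes between -0.06 and -0.0046 and did not pass.

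Of the other thiamine diphosphate decarboxylase genes and regulators, *PDC2*, an activator of *PDC1*, *PDC5* and thiamine genes, was lower, with 84.4, 80.5 and 76.1 CPM in the libraries labelled BSGX001 (thi2Δ), against 101, 100.1 and 103 CPM in those labelled BSGX001 (log2 fold change -0.34, adjusted p = 3.52e-04, edgeR's quasi-likelihood test with Benjamini-Hochberg adjustment). *THI3*, a decarboxylase-like protein that works with Pdc2 and Thi2 as a thiamine sensor, was higher by 0.25 on the log2 scale (adjusted p = 0.0178, same test), but did not pass without replicate 2 labelled BSGX001 (thi2Δ) (0.19, adjusted p = 0.093) or BSGX001 replicate 2 (0.23, adjusted p = 0.0587). *ARO10* did not pass (0.36, adjusted p = 0.141). With library totals *PDC2* was at -0.12 and no longer passed. In the pyruvate dehydrogenase complex, the mitochondrial route that competes for pyruvate, *PDX1* (0.52) and *PDB1* (0.38) rose while *LAT1* (-0.38) and *PDA1* (-0.26) fell, and *LPD1* and the pyruvate carboxylase genes *PYC1* and *PYC2* did not pass. *PDA1* was at -0.04 with library totals (adjusted p = 0.638) and *LAT1* at -0.16 with limma on log2(FPKM + 1) (adjusted p = 0.0694), and neither passed there.

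Downstream of acetate, *ACS1*, an acetyl-CoA synthetase gene on chromosome I, was higher (log2 fold change 0.46) and so was the alcohol acetyltransferase gene *ATF2* (0.48, adjusted p = 0.0475 in edgeR's quasi-likelihood test with Benjamini-Hochberg adjustment), while *ACS2*, *ACH1*, *ADY2* and *ATF1* did not pass. The median gene of chromosome I stood at 0.99, and the part of the chromosome in the value of *ACS1* was not tested. *ATF2* rested on 4.59 to 8.29 CPM and lost the call in 6 of 16 alternatives, among them those without replicate 3 labelled BSGX001 (thi2Δ) (0.36) and without BSGX001 replicate 2 (0.42) or 3 (0.45). *YGP1*, a cell wall protein gene of the acetic acid response list, fell by 0.81, and *HAA1*, *TPO2*, *TPO3* and *YRO2* of that list did not pass.

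In the lists of regulators and their targets, the glycolytic list held 0 higher and 1 lower of 4 genes tested. The Adr1 and Cat8 list held 2 higher and 1 lower of 10. The stress list held 1 higher and 2 lower of 5, and the zinc list 1 higher and 2 lower of 6. Of all genes tested 26.1% were higher and 25.2% lower. *ADR1*, the activator of *ADH2*, had 714, 653 and 649 CPM in the libraries labelled BSGX001 (thi2Δ), against 839, 803 and 929 CPM in those labelled BSGX001 (log2 fold change -0.35, adjusted p = 1.92e-04, edgeR's quasi-likelihood test with Benjamini-Hochberg adjustment). Its mRNA level was thus opposite in sign to that of *ADH2*, and with library totals it was at -0.13 and did not pass (adjusted p = 0.085). Of the 10 genes in the list of Adr1, Cat8 and their targets, the peroxisomal genes *POX1* (0.43) and *CTA1* (0.24) rose, *ADR1* fell, and 7 genes did not pass. These 7 were *CAT8* (-0.14), *SIP4* (-0.14), *JEN1* (0.12), the glyoxylate cycle genes *ICL1* (-0.10) and *MLS1* (0.05), and the gluconeogenesis genes *FBP1* (-0.03) and *PCK1* (-0.02). *RAP1* fell by 0.53 among the glycolytic regulators, while *GCR1*, *GCR2* and *TYE7* did not pass. In the stress list *HSP12* rose (0.47) and *MSN4* (-0.61) and *DDR2* (-0.30) fell, and in the zinc list *ZRT2* rose (0.58) and *ZRT3* (-0.48) and *ZRT1* (-0.36) fell. *ZRT1* lost its call in 7 of 16 alternatives, at -0.23 without replicate 1 labelled BSGX001 (thi2Δ), -0.25 and -0.33 without BSGX001 replicates 1 and 3 and -0.15 with library totals. *DDR2* was at -0.08 with library totals and did not pass, and *CTA1* did not pass without BSGX001 replicate 1 (0.19).

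**Figure D4:**
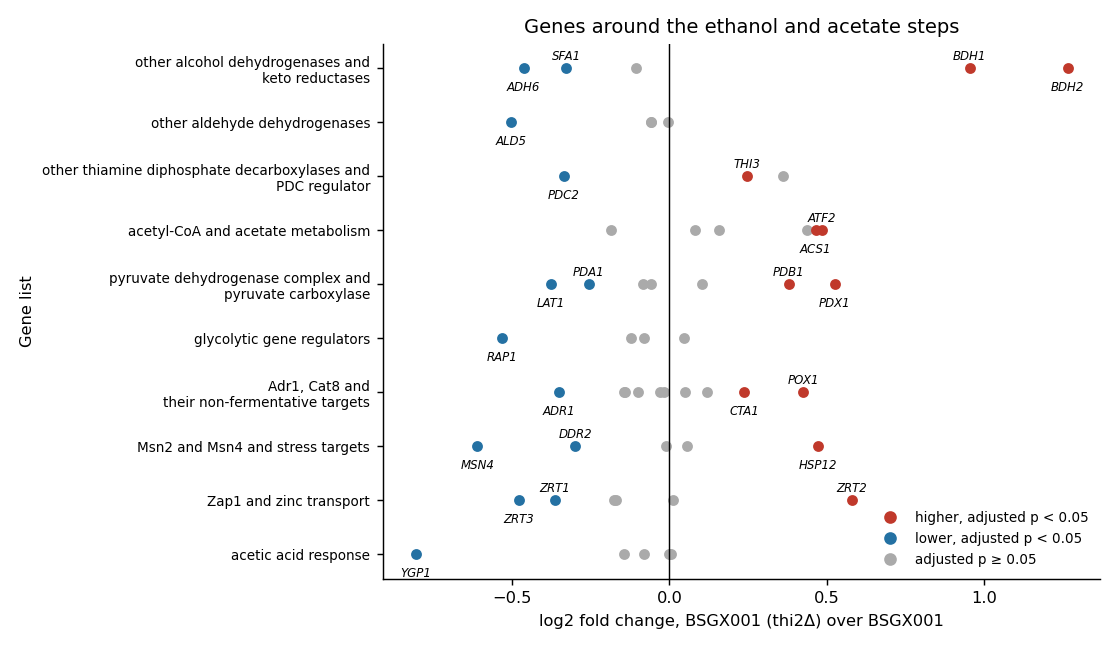
Log2 fold change (x axis, libraries labelled BSGX001 (thi2Δ) over those labelled BSGX001, TMM scaling) of the 55 tested genes in 10 lists (rows) around the ethanol and acetate steps; red is higher, blue lower and grey not past an adjusted p of 0.05. Genes lie on both sides of 0 in most lists, *BDH1* and *BDH2* of chromosome I lie furthest right and *YGP1* furthest left.

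The genes whose TMM-scaled levels followed *ADH2* most closely over the 6 libraries were *CYC1*, a cytochrome c gene (Pearson r = 0.998), *CDC19*, the main pyruvate kinase gene (0.998), and *RTN1* (0.997). *CDC19* had 1416, 1397 and 1515 CPM in the libraries labelled BSGX001 (thi2Δ), against 759, 890 and 852 CPM in those labelled BSGX001, a log2 fold change of 0.79. It lies on chromosome I, where the median gene stood at 0.99, and the part of the chromosome in its likeness to *ADH2* was not tested. For *PDC1* they were *SUI2* (0.990), *YCR100C* (0.988) and *TED1* (0.985). These values describe 6 libraries of 2 labels out of 5774 genes searched, and for *PDC1* they follow the high replicate 2 labelled BSGX001.

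The scale on which libraries are compared decides several of these calls. Of the 10 genes, TMM scaling gave 2 higher and 3 lower, upper-quartile factors gave 3 higher and 2 lower, library totals 5 higher and 1 lower, and limma on log2(FPKM + 1) 5 higher and none lower. Over all genes the TMM split was 1507 higher and 1457 lower, against 2999 and 595 with library totals. Relative to the median gene on the library-total scale, an alternative added after the data had been seen, *PDC1* was at -0.50, *ADH1* at -0.21, *ADH5* at -0.27, *ALD4* at 0.13, *ALD6* at 0.35 and *ADH2* at 0.72, close to the TMM values. *ADH2* and *ALD6* were higher, on every scale tried, and passed on each scale with a test.

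**Figure D5:**
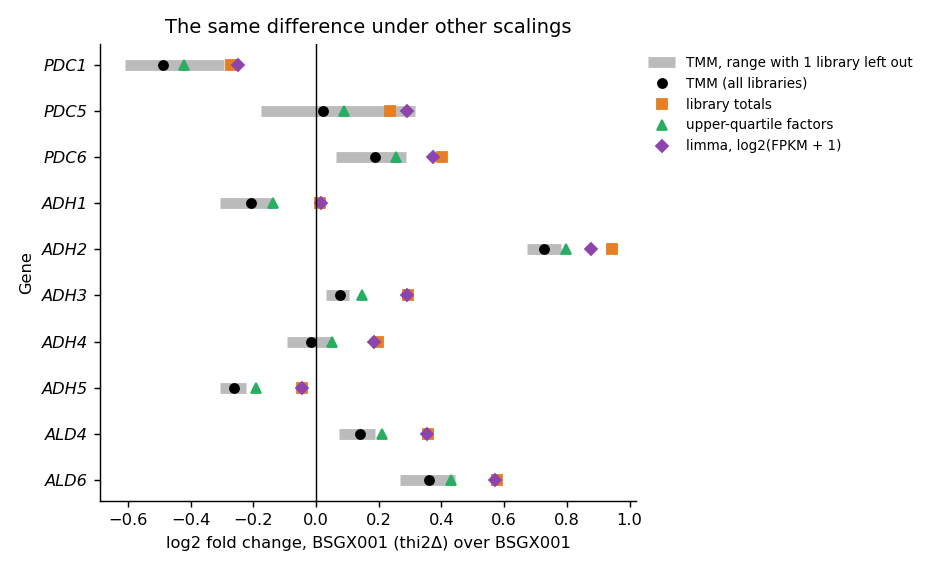
Log2 fold change of each gene (libraries labelled BSGX001 (thi2Δ) over those labelled BSGX001) with TMM scaling (black), library totals (orange), upper-quartile factors (green) and limma on log2(FPKM + 1) (purple); grey bars span the TMM values when 1 library is left out. *ADH2* (0.67 to 0.94) and *ALD6* (0.27 to 0.58) stay right of 0 throughout and *PDC1* left of it, whereas *ADH1*, *ADH4* and *PDC5* cross it.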

How the data were processed

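RNA of cells in the GX stage was enriched for poly(A) RNA and sequenced on an Illumina HiSeq instrument, with 3 libraries per label. The authors deposited for each library a count per gene, in whole numbers and not normalized, and an FPKM per gene, scaled by them to length and library total. The submitters' processing notes name genome build R64 and DESeq. Aligner, counting program, strand setting and read length are not given in the sources used here. The authors' comparison tables hold fold changes, p-values and q-values and were not used, nor were 12 columns of tables of the whole series.

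Counts were analysed with edgeR 4.0.16 in R 4.3.3 (TMM, filterByExpr, robust quasi-likelihood fit, Benjamini-Hochberg adjustment over the 5774 of 5925 genes that passed, threshold 0.05). Standard errors were computed as the absolute log2 fold change over the root of the F statistic, and the biological coefficient of variation was 0.0628. Depth was 7584920 to 12255688 counts per library, and no pair of libraries was a duplicate (the smallest chi-square per degree of freedom was 4.04). Shares and ratios used FPKM with exact permutation tests. Alternatives were DESeq2 1.42.0 and its size factors, limma 3.58.1 on log2(FPKM + 1) and log2(FPKM + 0.1), library totals, upper-quartile factors, other filters (none, or at least 10 counts in every library), a replicate block, leaving out each library in turn, and 2 alternatives added after the data had been seen. The procedure was tested on simulated data.

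The genes and lists were chosen with earlier results of these data known. Named genes were the 10 genes, *THI2*, *COX4* and *GRE3*, up to 3 rises and 3 falls past the threshold in each list, and the 3 genes most like *PDC1* and *ADH2*; other list members without a call were named for completeness. Identifiers of 5923 genes matched the RefSeq annotation of the S288C genome, from which coordinates and sequences were read. *ADH7*, of the list of other alcohol dehydrogenases, was not analysed here.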

Additional observations from a re-analysis of the deposited data

How the results depend on the processing

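The count of the 10 genes past the threshold was 5 and stayed between 4 and 6 in every alternative, the list genes between 22 and 34 around 24, and genes differing overall between 2484 and 3594 around 2964. The 22 list genes came from the alternative that removes the 3 list genes of chromosome I, all of which had passed. *ADH2* and *ALD6* kept their direction in all 17 alternatives and their call in the 16 with a test, and *PDC1* its direction in all 17. Library totals and FPKM moved the split of calls most, to 2999 higher and 595 lower with library totals and 2940 and 558 with limma on log2(FPKM + 1), against 1507 and 1457 with TMM and 1899 and 1113 with upper-quartile factors, where the median gene stood at 0.22 (library totals and FPKM) or 0.08 (upper-quartile factors). On those scales *ADH1* turned to 0.012 (library totals) and 0.015 (limma with either pseudocount) and *ADH4* to 0.20 (library totals), 0.052 (upper-quartile factors), 0.19 (limma, pseudocount 1) and 0.20 (pseudocount 0.1). With 1 library left out *PDC5* ranged from -0.18 to 0.32, with -0.051 without replicate 1 labelled BSGX001 (thi2Δ) and -0.025 without BSGX001 replicate 1, and *ADH4* from -0.092 to 0.054, with 0.036 when replicate 2 labelled BSGX001 (thi2Δ) was missing. The *ADH4* share difference was 0.0863 percentage points and ranged from -0.0214 to 0.219, with -0.00401 without BSGX001 replicate 2. The ratio differences ranged from 0.36 to 0.64 (*PDC5* to *PDC1*), from 0.86 to 0.98 (*ADH2* to *ADH1*) and from -0.28 to -0.16 (*ALD4* to *ALD6*) on the log2 scale. Deviations of same-numbered libraries correlated at 0.0933, -0.0566 and -0.0539. With 3 libraries a label these values cannot decide whether the numbers pair the libraries. A replicate block gave 3020 genes (1530 higher, 1490 lower) and 5 of the 10 genes, and changed none of their calls. For *PDC5* the SE was 0.282 in the main fit and 0.0782 with the block, where its log2 fold change was 0.08. Its same-numbered libraries differed in opposite directions, at 1219 against 1011, 1017 against 1494 and 1086 against 763 CPM (BSGX001 (thi2Δ) label first). The smaller SE therefore does not describe the spread between these pairs. With 76 to 98 counts of *ADH2* in a BSGX001 library, counting error limits that gene, and with 3 libraries a label the exact tests cannot go below 0.1. Apart from the alternatives given for single genes, causes were not tested.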
